A study of Homo sapiens with 4 samples.

Results

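The long non-coding RNAs (lncRNAs) UCA1, H19, PVT1, TUG1, DANCR and OIP5-AS1 have each been studied in human cancers. These 6 genes were looked up by name, by matching the Ensembl identifiers of 4 deposited RNA-seq tables to gene symbols. All 6 were found among the 27629 genes listed in at least 1 table, 5057 of which are annotated as lncRNA genes. UM-UC-3 is an established line of human bladder cancer. The cells were collected 48 h after transfection, total RNA was extracted, and libraries made from it were sequenced as paired reads of 100 bases. Every condition received 75 nM siRNA with Lipofectamine RNAimax. The conditions were a control siRNA, a mixture of 2 siRNAs against the RNA-binding protein hnRNPK (si-hnRNPK), a mixture of 2 against the RNA-binding protein PTBP1 (si-PTBP1), and a mixture of 2 against the lncRNA named LBCS (si-lncRNA-LBCS). Each condition is 1 library of 1 cell line, so the spread between cultures is unknown for every difference below. No p-value is given for a difference between conditions. The q values in the last section compare the reads of 2 libraries only. An untransfected sample was not analysed here.

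LncRNAs are transcripts without a long open reading frame that act through the proteins, chromatin or small RNAs they contact. Some serve as host transcripts from which microRNAs or small nucleolar RNAs are cut, some bind microRNAs and change their stability, and some are best known as readouts of the locus they lie in. Many are bound by heterogeneous nuclear ribonucleoproteins: hnRNPK prefers runs of C and takes part in the nuclear retention of RNAs, and PTBP1 binds pyrimidine tracts and represses splicing.

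H19 is an imprinted RNA, transcribed from the maternal allele beside the growth factor gene IGF2, and its first exon carries the microRNA miR-675. The gene (ENSG00000130600) lies on the minus strand at chr11:1995176-2001470 of GRCh38, and both arms of miR-675 lie in exon 1 of the 5 exons of its longest transcript. The mature arms are shown because they are the small RNA product of the lncRNA with the largest ratio between libraries among the 5 above 1 CPM; capitals mark the seed, bases 2 to 8, which directs a microRNA to its targets. The 2 arms have different seeds. Sequences are RefSeq entries on GRCh38.p14, at chr11:1996800-1996822 for the 5p arm and chr11:1996768-1996787 for the 3p arm, minus strand. Mature microRNAs are too short for these libraries and were not measured.
miR-675-5p: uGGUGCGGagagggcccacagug
miR-675-3p: cUGUAUGCccucaccgcuca

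OIP5-AS1, also called Cyrano, is known for a conserved and nearly complete site for the microRNA miR-7, which it directs to decay. The gene (ENSG00000247556) lies on the plus strand at chr15:41283990-41309737. MIR7-1, which is not the only gene that gives miR-7-5p, lies inside the limits of HNRNPK, the gene targeted in si-hnRNPK. The mature miR-7-5p of MIR7-1 lies at chr9:83969811-83969834 on the minus strand and is printed with its seed in capitals. The site in OIP5-AS1 lies in exon 4 of 4 of its longest transcript, at chr15:41300574-41300599, and capitals mark the bases that pair with miR-7-5p when 2 bases of the transcript are looped out. In that alignment 23 of the 24 bases of the microRNA are paired. OIP5-AS1 held 3 matches to the 7 bases that pair with the miR-7 seed, and the other two paired with 14 and 15 bases of the microRNA. At least 1 such match of 7 bases was present in 10.2% of the longest transcripts of the 5057 lncRNA genes. MIR7-1 is not listed in the tables, and the level of miR-7 was not measured.
miR-7-5p: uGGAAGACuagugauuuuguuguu
site in OIP5-AS1: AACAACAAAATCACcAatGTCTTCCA

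The siRNAs define the conditions. In the sequences below capitals mark the 7 bases that a transcript must hold to pair with bases 2 to 8 of the guide strand. Only the siRNAs of the mixtures are shown, as their sense strands from the sample labels. Their 19 paired bases matched HNRNPK at chr9:83972869-83972887 (exon 10 of 17) and chr9:83971998-83972016 (exon 11), PTBP1 at chr19:805080-805098 (exon 8 of 12) and chr19:810750-810768 (exon 12), and AL022068.1 at chr6:19803794-19803812 and chr6:19803293-19803311 (both exon 3 of 3). None of these 19-base sequences matched a transcript of the 6 lncRNAs. The 7-base seed matches were counted in the longest transcript of each. TUG1 held 5 for the pair against lncRNA-LBCS, 2 for the pair against hnRNPK, 2 for the pair against PTBP1 and 1 for the control siRNA. OIP5-AS1 held 2 for the pair against hnRNPK, 2 for the pair against lncRNA-LBCS, 1 for the pair against PTBP1 and 0 for the control siRNA. H19 held 1, for the pair against lncRNA-LBCS, PVT1 held 1, for the pair against PTBP1, and DANCR held 0 for all of them. UCA1 held 4 for the pair against lncRNA-LBCS, 1 for the pair against hnRNPK, 2 for the pair against PTBP1 and 0 for the control siRNA. Such a match is present in 5.52% of lncRNA transcripts for siRNA 1 against lncRNA-LBCS and in 15.0% for its siRNA 2, and in 6.78% and 20.0% for siRNA 1 and 2 against hnRNPK. Whether any of these matches lowered a transcript was not tested.
si-hnRNPK 1: ggguuguagagUGCAUAAatt
si-hnRNPK 2: gccuccaucuaGAAGAGAutt
si-PTBP1 1: gccucaacgucAAGUACAatt
si-PTBP1 2: cccucauugacCUGCACAatt
si-lncRNA-LBCS 1: gcugcucauuuGUCUGAUctt
si-lncRNA-LBCS 2: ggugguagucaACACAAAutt

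TUG1 (ENSG00000253352), annotated as a bidirectional promoter lncRNA, lies on the plus strand at chr22:30969245-30979395 and starts 947 bases from MORC2, which is transcribed the other way. Its promoter is shown because the levels of both genes beside it were measured. The window is RefSeq, GRCh38.p14, plus strand, 300 bases at chr22:30969015-30969314. Capitals mark CACGTG, the core of an E-box, and CCAAT or its reverse complement ATTGG; no other motif was searched there, and none of these overlap. The window held 1 CACGTG and 2 CCAAT or ATTGG. Among 35116 promoter windows of the same length, 7.26% held CACGTG, 34.6% held CCAAT or ATTGG, and 2.33% held both. The OIP5-AS1 window also held 1 CACGTG and 2 CCAAT or ATTGG, that of DANCR 0 and 5, and that of H19 neither. A match describes letters in a window, and no factor's binding was measured.
TUG1: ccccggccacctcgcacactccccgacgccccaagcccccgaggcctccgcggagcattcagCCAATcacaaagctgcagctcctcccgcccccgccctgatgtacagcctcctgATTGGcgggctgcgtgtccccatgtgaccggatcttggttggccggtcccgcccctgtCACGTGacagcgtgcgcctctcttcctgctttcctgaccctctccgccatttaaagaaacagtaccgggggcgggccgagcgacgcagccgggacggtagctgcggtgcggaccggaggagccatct

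The tables give CPM, a read count divided by the library total of listed genes and set to a common scale, and the reads behind each value could be recovered as whole numbers. The libraries held between 54301152 and 70232674 reads on listed genes, and 3 reads, taken as the floor, stand for 0.0427 to 0.0552 CPM. HNRNPK was at 783.1 CPM in control and 187.8 CPM in si-hnRNPK, which is 0.240 times the control level. PTBP1 was at 280.0 CPM in control and 89.7 CPM in si-PTBP1, or 0.320 times. The gene matched by the siRNAs against lncRNA-LBCS, AL022068.1, had 110 reads in control and 103 reads (1.79 and 1.47 CPM) in the si-lncRNA-LBCS-labelled library. It had 186 reads (3.43 CPM) in si-hnRNPK and 214 reads (3.82 CPM) in si-PTBP1, so its CPM was lowest in the si-lncRNA-LBCS-labelled library. At this low level the small difference from control does not bear out that label clearly. Changes between libraries are given as a ratio of CPM with a 95% exact Clopper-Pearson interval, which covers counting error only, and as a difference in log2(CPM + 1), which makes changes of low genes look smaller. A gene was tested for size of change if it reached 1 CPM in 1 of the 2 libraries compared, and called if log2(CPM + 1) differed by at least 1. This is 2-fold in CPM + 1, called 2-fold below, and in low genes it asks for a larger ratio of CPM. The median difference over all genes tested was -0.11 in si-hnRNPK, 0.12 in si-PTBP1 and -0.01 in the si-lncRNA-LBCS-labelled library, and differences relative to it are given where they matter.

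The libraries had the markers of a carcinoma line with mesenchymal features. KRT8 and KRT18, keratins of simple epithelium, were at 63.0 to 94.8 CPM and 75.2 to 121.4 CPM, and the intermediate filament gene VIM was at 1417 to 2343 CPM. Defining urothelial markers were near 0: the uroplakin genes UPK1A, UPK1B and UPK2, the luminal factor GATA3 and the keratins KRT5, KRT19 and KRT20 all stayed below 1 CPM, and UPK3A, KRT14 and the adhesion gene CDH1 were not listed. PPARG (2.33 to 5.19 CPM), FOXA1 (1.67 to 2.53 CPM) and KRT7 (1.42 to 3.03 CPM) were low, and TP63, a basal cell factor, rose from 0.342 CPM in control to 2.50 CPM in si-hnRNPK and 2.37 CPM in si-PTBP1. Of 13 markers of blood, fibroblasts and endothelium, 0 reached 1 CPM in control, si-hnRNPK or the si-lncRNA-LBCS-labelled library, where they summed to 0.897 to 1.10 CPM. In si-PTBP1 they summed to 4.23 CPM and 2 of them, COL1A1 at 2.25 CPM and PDGFRB at 1.73 CPM, passed 1 CPM. PTPRC, CD3E, LYZ, HBB, COL1A2, DCN and PECAM1 were not listed in any table. Beside the H19 and TUG1 values in that library this is given as a measured fact, and its part in them was not tested. All lncRNA genes together took 10016 CPM in control, 11457 CPM in si-hnRNPK, 13435 CPM in si-PTBP1 and 9362 CPM in the si-lncRNA-LBCS-labelled library. MALAT1 and NEAT1 carried most of that spread, and without them the totals were 7609, 7957, 8099 and 7856 CPM in the same order.

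Compared per length of annotated exons, the 6 lncRNAs spread over more than 3 orders of magnitude in the control library. In RPKM, the CPM of a gene divided by its exon length in kilobases, DANCR was highest with 30.8, followed by PVT1 with 8.85, TUG1 with 5.28, OIP5-AS1 with 4.09, H19 with 0.742 and UCA1 with 0.0235. The order in control was the same when the length of the longest transcript was used. It moved in 2 of the 3 libraries other than control: TUG1 (8.57 RPKM) stood above PVT1 (7.92 RPKM) in si-PTBP1, a step that turns round with the longest transcript as the length, and OIP5-AS1 (4.57 RPKM) stood above TUG1 (3.64 RPKM) in the si-lncRNA-LBCS-labelled library under both lengths. Among the lncRNA genes with reads in control, ranked by CPM, DANCR was number 15, TUG1 20, OIP5-AS1 22, PVT1 25, H19 484 and UCA1 3064.

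**Figure D1:**
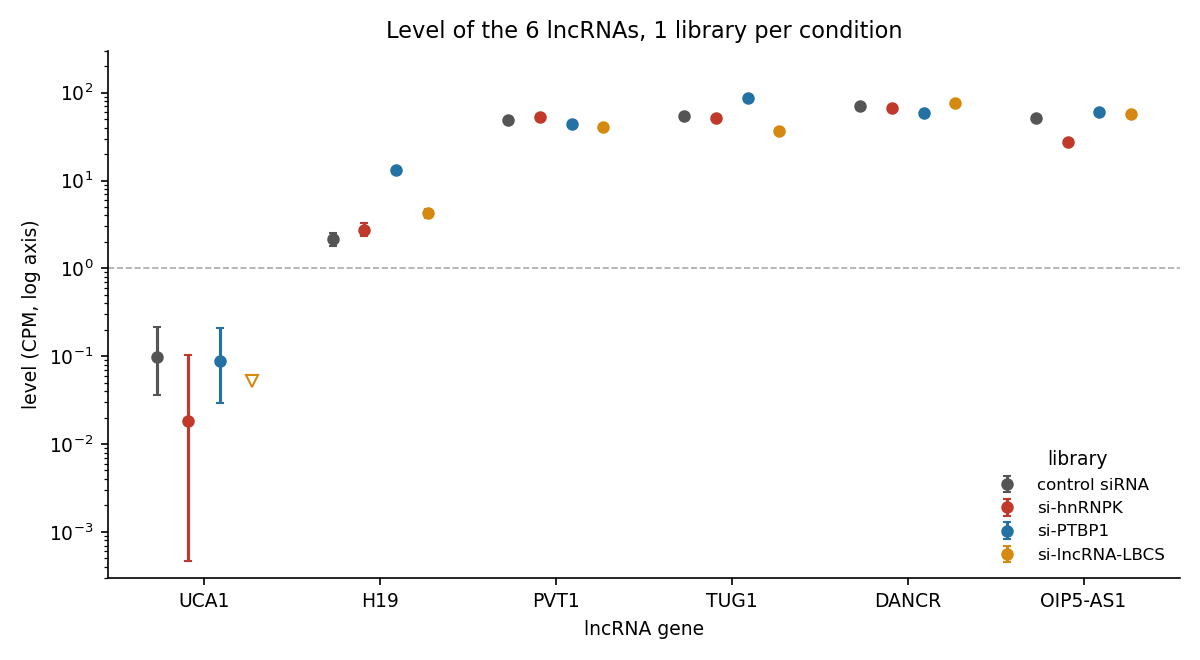
Level of the 6 lncRNAs in CPM on a log axis, 1 point per library, with 95% exact intervals that cover counting error only; the open triangle is the upper limit of UCA1 in the library with 0 reads, and the dashed line is 1 CPM. UCA1 lies below 0.1 CPM in all 4 libraries, H19 between 2.15 and 13.3 CPM, and the other four lncRNAs between 27.2 and 86.9 CPM.

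Of the 6 lncRNAs, 5 could be tested for size of change and UCA1 could not, because it stayed below 1 CPM. In si-hnRNPK 0 of the 5 were called, where 3.55% of the 13672 genes tested were 2-fold higher and 3.93% were 2-fold lower. In si-PTBP1 1 of the 5 was called, H19, which was higher, where 2.92% of 13855 genes were higher and 0.613% were lower. In the si-lncRNA-LBCS-labelled library 0 of the 5 were called, where 0.378% of 13492 genes were higher and 1.01% were lower. At 1.5-fold OIP5-AS1 was lower in si-hnRNPK (all genes: 9.89% higher and 15.8% lower), H19 and TUG1 were higher in si-PTBP1 (12.1% and 3.12%), and H19 was higher in the si-lncRNA-LBCS-labelled library (4.14% and 5.74%). The median difference of the 5 lncRNAs was -0.06 in si-hnRNPK, 0.20 in si-PTBP1 and 0.09 in the si-lncRNA-LBCS-labelled library, and that of all lncRNA genes tested was -0.01, 0.20 and 0.05. The 5 went both ways, over -0.91 to 0.26, -0.26 to 2.18 and -0.53 to 0.74 in those libraries.

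**Figure D2:**
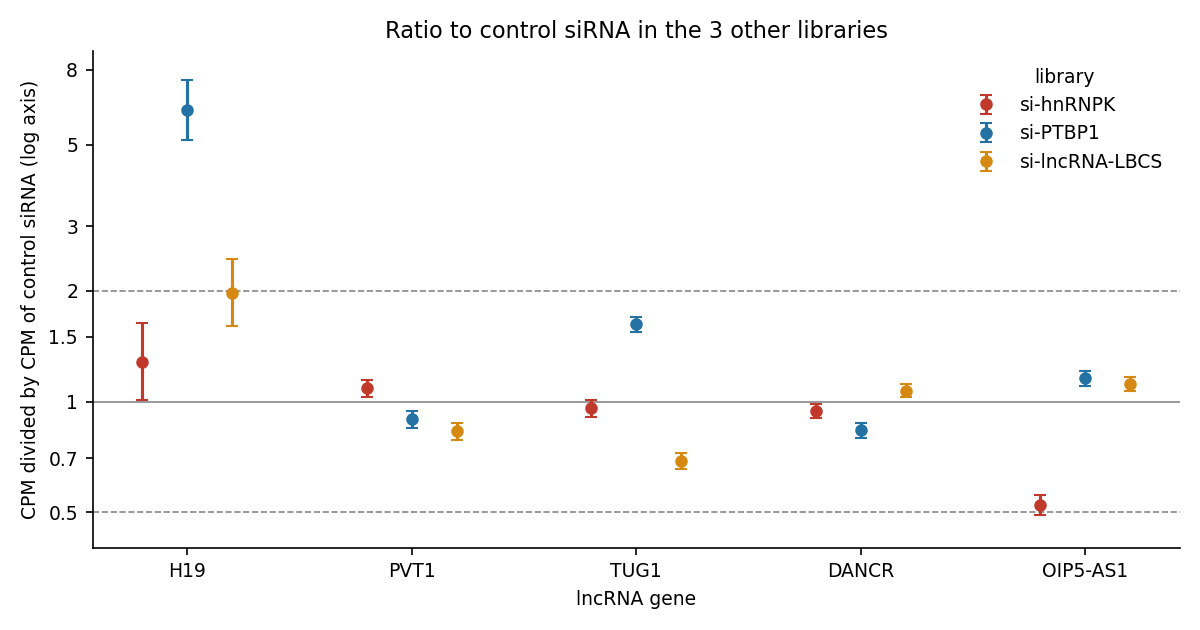
CPM of each of the 3 other libraries divided by the CPM of control for the 5 lncRNAs above 1 CPM, on a log axis, with 95% exact intervals (counting error only); the solid line is no difference and the dashed lines are 2-fold. H19 in si-PTBP1 stands at 6.19, OIP5-AS1 in si-hnRNPK at 0.524 and TUG1 at 1.62 in si-PTBP1 and 0.688 in the si-lncRNA-LBCS-labelled library; in these bulk libraries fewer cells with an RNA and less RNA per cell cannot be told apart.

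H19 had the largest ratio between libraries among the 5 lncRNAs above 1 CPM. It was at 2.15 CPM (132 reads) in control, 2.76 CPM (150 reads) in si-hnRNPK, 13.3 CPM (747 reads) in si-PTBP1 and 4.26 CPM (299 reads) in the si-lncRNA-LBCS-labelled library. Control was the lowest library and si-PTBP1 stood far above the other three. In si-PTBP1 H19 was 6.19 times the control level (5.14 to 7.51), a difference of 2.18 on the log2(CPM + 1) scale and 2.06 relative to the median of all genes. Only 11 of 13855 genes and 0 of the other lncRNA genes among the 1085 tested rose further on that scale, while with a pseudocount of 0.1 in place of 1 these were 25 genes and 4 lncRNA genes. H19 was 1.98 times control (1.61 to 2.45) in the si-lncRNA-LBCS-labelled library, a difference of 0.74 that is short of the threshold. In si-hnRNPK the ratio was 1.28 (1.01 to 1.64), whose interval nearly reaches 1. Between si-PTBP1 and the si-lncRNA-LBCS-labelled library the ratio was 3.13 (2.73 to 3.59), so these libraries differed from each other beyond counting error too.

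IGF2, the paternally expressed growth factor gene that shares its enhancers with H19, had another pattern. IGF2 was at 6.04 CPM in control, 2.56 CPM in si-hnRNPK, 6.97 CPM in si-PTBP1 and 2.49 CPM in the si-lncRNA-LBCS-labelled library. It was thus near control where H19 was highest, 1.15 times the control level with an interval of 0.998 to 1.33 that holds 1. In the si-lncRNA-LBCS-labelled library IGF2 fell by 1.01 on the log2(CPM + 1) scale, past the threshold, with a ratio to control of 0.412 (0.342 to 0.495). In si-hnRNPK the difference of -0.98 lies just inside the threshold, though the ratio was nearly the same, 0.423 (0.346 to 0.516). MRPL23, a mitochondrial ribosomal protein gene 10654 bases from H19 on the other side, was at 41.1 to 51.9 CPM. MIR675 was not listed, so reads of the microRNA precursor within exon 1 could not be told apart from those of H19. CTCF, the insulator protein that binds the control region of this locus, was at 77.8 CPM in control, 49.3 CPM in si-hnRNPK, 71.2 CPM in si-PTBP1 and 52.5 CPM in the si-lncRNA-LBCS-labelled library, and did not pass the threshold.

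Some genes of the imprinted network were higher in si-PTBP1, as H19 was. Of 19 genes on the list, 10 could be tested, and 2 rose in si-PTBP1 while 0 fell, where 2.92% of all genes tested were higher and 0.613% were lower. PEG10, a paternally expressed gene derived from a retrotransposon, was at 61.7 CPM in control, 107.8 CPM in si-hnRNPK, 215.5 CPM in si-PTBP1 and 122.0 CPM in the si-lncRNA-LBCS-labelled library. CDKN1C, a cell cycle inhibitor of the same chromosome arm as H19, was at 2.79, 3.66, 7.35 and 2.83 CPM in that order of libraries. PEG10 was lowest in control as H19 was, and CDKN1C was highest in si-PTBP1. The differences of all 10 genes in si-PTBP1 were above 0, as were those of 8799 of the 13855 genes tested, but that of PLAGL1 turned to -0.07 with median-of-ratios scaling. Of the 10 genes 9 were above the median of all genes, with a list median of 0.50 against 0.12 for all genes tested. In si-hnRNPK the list median was -0.19 with 0 genes called (all genes: 3.55% higher and 3.93% lower). In the si-lncRNA-LBCS-labelled library the list median was 0.01 with 1 gene called, IGF2, which was lower (all genes: 0.378% higher and 1.01% lower). The other members in si-PTBP1 were GRB10, an adaptor of insulin-type receptors (37.9 CPM in control and 61.7 CPM), the transporter gene SLC22A18 (3.52 and 5.99 CPM), the sarcoglycan gene SGCE (73.0 and 108.1 CPM), SNRPN, which codes for a splicing protein (1.24 and 2.05 CPM), and PHLDA2, a growth suppressor of placenta (7.74 and 10.4 CPM). GNAS, the stimulatory G protein subunit (678.1 and 759.8 CPM), and the zinc finger gene PLAGL1 (19.4 and 20.2 CPM) were nearest to control.

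**Figure D3:**
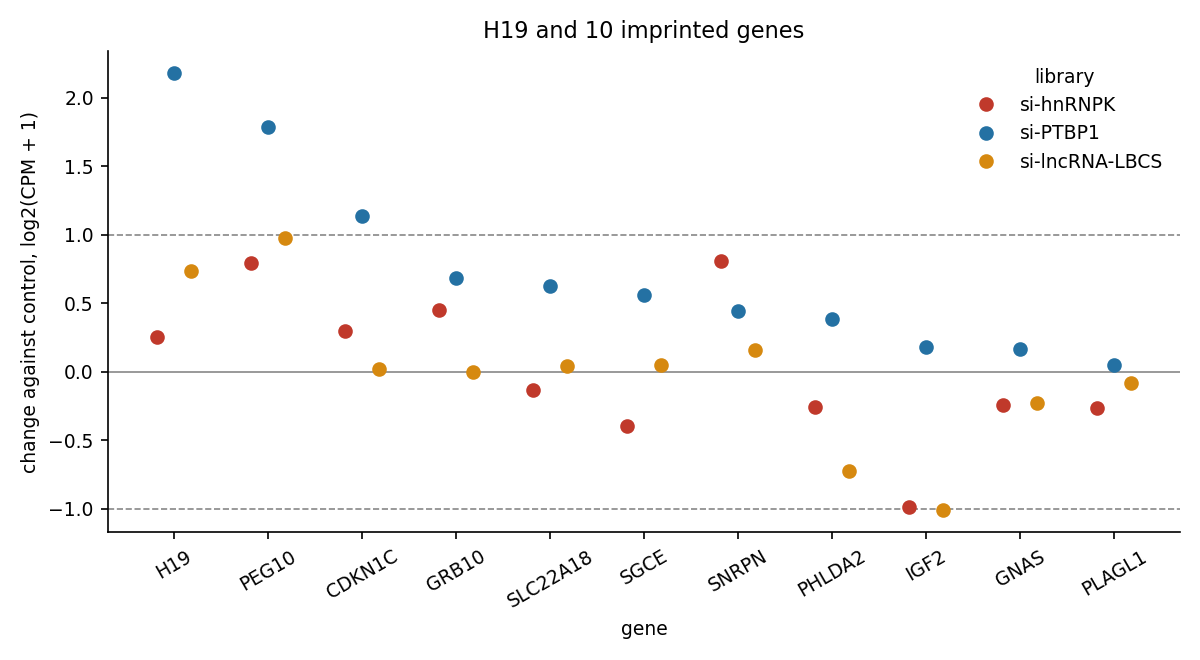
Difference in log2(CPM + 1) against control of H19 and the 10 imprinted genes tested, in the 3 libraries other than control, 1 library per condition; the dashed lines are the threshold of 1. In si-PTBP1 H19 (2.18), PEG10 (1.79) and CDKN1C (1.14) lie above it and all other points lie above 0 (PLAGL1 is below 0 with median-of-ratios scaling), while IGF2 lies at -0.98 in si-hnRNPK and -1.01 in the si-lncRNA-LBCS-labelled library.

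OIP5-AS1 was lower in si-hnRNPK than in each of the other three libraries. It was at 51.8 CPM (3181 reads) in control, 27.2 CPM (1475 reads) in si-hnRNPK, 59.9 CPM (3358 reads) in si-PTBP1 and 57.9 CPM (4064 reads) in the si-lncRNA-LBCS-labelled library. Its ratio to control in si-hnRNPK was 0.524 (0.492 to 0.558), a difference of -0.91 on the log2(CPM + 1) scale, short of the threshold, and -0.80 relative to the median of all genes. Of the lncRNA genes tested in si-hnRNPK, 40 of 1002 were lower, and 743 of 13672 of all genes were. Against the geometric mean of the other libraries OIP5-AS1 passed 2-fold in si-hnRNPK, as did 2.6% of the genes tested in that direction. It was 1.16 times control (1.10 to 1.21) in si-PTBP1 and 1.12 times (1.07 to 1.17) in the si-lncRNA-LBCS-labelled library, and the interval of the ratio of those libraries to each other, 0.989 to 1.08, holds 1.

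The genes around OIP5-AS1 did not all share this. OIP5, a centromere protein gene on the opposite strand whose end overlaps the end of OIP5-AS1 by 470 exon bases, was at 10.9 CPM in control, 5.67 CPM in si-hnRNPK, 11.7 CPM in si-PTBP1 and 15.7 CPM in the si-lncRNA-LBCS-labelled library. Its ratio to control in si-hnRNPK, 0.521 (0.454 to 0.597), was close to that of OIP5-AS1. Whether strand was used in counting is not given in the sources used here, so reads within these 470 bases could not be told apart. NUSAP1, a spindle protein gene 22957 bases away, fell from 277.3 CPM in control to 113.0 CPM in si-hnRNPK, a difference of -1.29. CHP1, a calcium-binding protein gene that ends 2100 bases before OIP5-AS1, was at 65.7 CPM in control and 68.9 CPM in si-hnRNPK. DICER1, which cuts microRNA precursors such as that of miR-7, fell from 181.7 to 87.7 CPM in si-hnRNPK, with a difference of -1.04 that misses the threshold at -0.93 after median-of-ratios scaling. DROSHA (36.8 and 25.1 CPM) and DGCR8 (51.3 and 40.0 CPM), which act before it, did not pass the threshold. ELAVL1, the RNA-binding protein HuR that OIP5-AS1 is known to bind, was at 73.1 CPM in control and 54.6 CPM in si-hnRNPK. The site for miR-7 shown above and the position of MIR7-1 in HNRNPK are given beside these values, and their part in them was not tested.

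TUG1, an RNA known for contacts with the Polycomb repressive complex, was higher than control in si-PTBP1 and lower in the si-lncRNA-LBCS-labelled library. It was at 53.6 CPM (3292 reads) in control, 51.4 CPM (2789 reads) in si-hnRNPK, 86.9 CPM (4875 reads) in si-PTBP1 and 36.9 CPM (2593 reads) in the si-lncRNA-LBCS-labelled library. The si-PTBP1 library was highest, the si-lncRNA-LBCS-labelled one lowest, and control and si-hnRNPK lay together between them. TUG1 was 1.62 times control (1.55 to 1.69) in si-PTBP1 and 0.688 times (0.654 to 0.725) in the si-lncRNA-LBCS-labelled library, and the ratio of the former to the latter was 2.36 (2.24 to 2.47). Neither difference from control reached the threshold, being 0.69 and -0.53, or 0.56 and -0.51 relative to the median of all genes. In si-hnRNPK the interval of the ratio, 0.910 to 1.01, holds 1, and the difference of -0.06 turns to 0.05 with median-of-ratios scaling. The longest TUG1 transcript, of 7469 bases, holds the 5 seed matches of the siRNAs against lncRNA-LBCS counted above. It also holds 2 for the pair against hnRNPK, 2 for the pair against PTBP1 and 1 for the control siRNA. The part of these matches in the TUG1 values was not tested.

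MORC2, a chromatin ATPase gene on the minus strand that starts next to TUG1, was at 30.3 CPM in control, 22.4 CPM in si-hnRNPK, 29.0 CPM in si-PTBP1 and 21.6 CPM in the si-lncRNA-LBCS-labelled library. It was thus near control where TUG1 was highest. SMTN, a smooth muscle cytoskeleton gene 84710 bases to the other side, was at 116.4, 76.2, 59.4 and 56.6 CPM in the same order, and fell by 1.03 on the log2(CPM + 1) scale in the si-lncRNA-LBCS-labelled library. EZH2, the methyltransferase of Polycomb repressive complex 2, fell from 97.3 CPM in control to 43.1 CPM in si-hnRNPK, a difference of -1.16. Its partners SUZ12 (74.5 and 44.3 CPM) and EED (26.0 and 19.6 CPM) were lower there as well without passing the threshold. In si-PTBP1, where TUG1 was highest, EZH2 was at 115.3 CPM, SUZ12 at 62.7 CPM and EED at 23.6 CPM. In the si-lncRNA-LBCS-labelled library, where TUG1 was lowest, EZH2 was at 80.6 CPM, SUZ12 at 70.0 CPM and EED at 26.3 CPM.

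**Figure D4:**
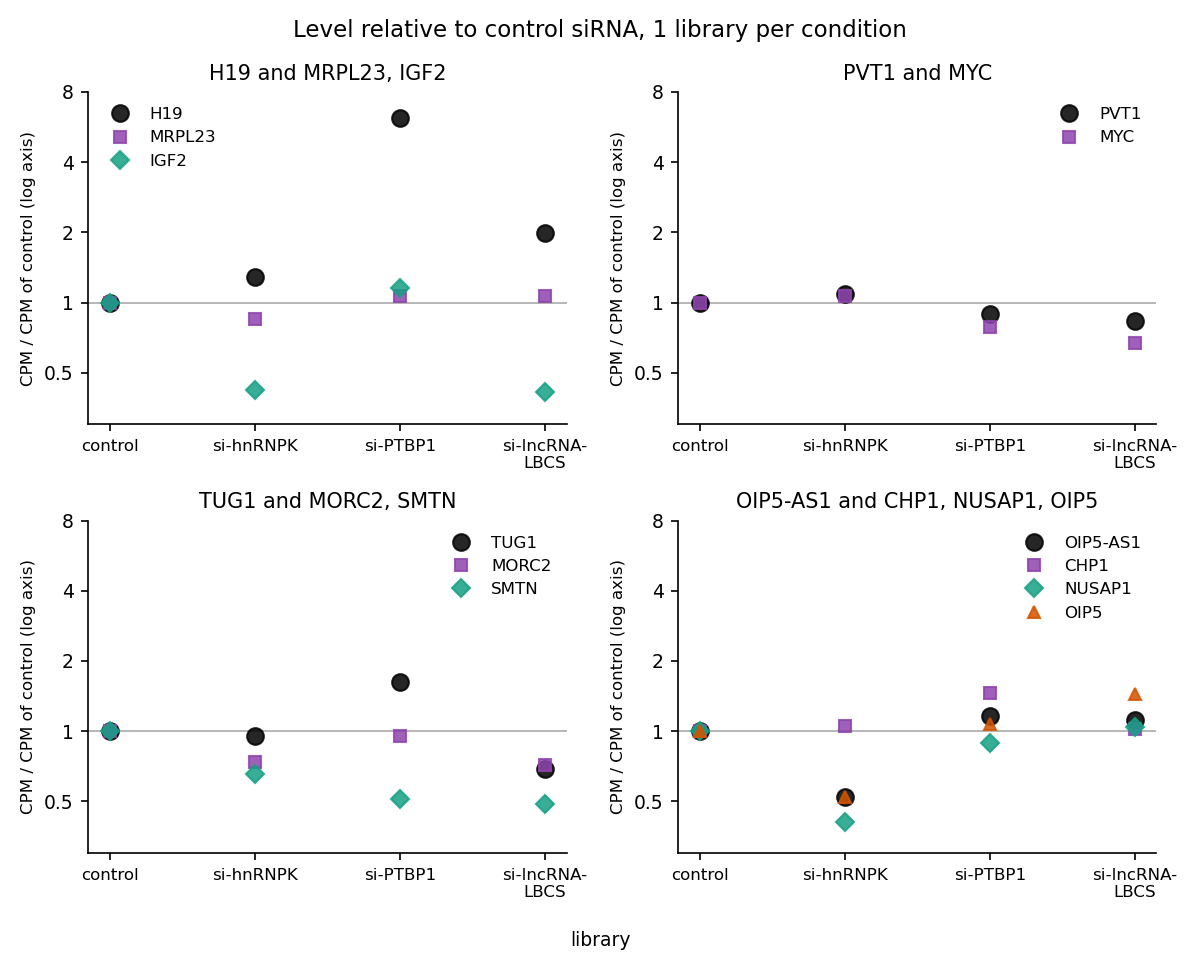
CPM divided by the CPM of control (log axis) of H19, PVT1, TUG1 and OIP5-AS1 (black circles) and of genes beside them, 1 library per condition. OIP5-AS1 (0.524) and OIP5 (0.521) lie together in si-hnRNPK while CHP1 does not, and H19 (6.19) and TUG1 (1.62) stand above their neighbours in si-PTBP1.

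PVT1 is the host of a microRNA cluster and is often gained together with MYC, its neighbour at 53099 bases. It (ENSG00000249859) spans 306721 bases at chr8:127794533-128101253, plus strand. PVT1 was at 48.6 CPM (2984 reads) in control, 52.8 CPM (2866 reads) in si-hnRNPK, 43.5 CPM (2440 reads) in si-PTBP1 and 40.3 CPM (2833 reads) in the si-lncRNA-LBCS-labelled library. It had a narrow range, highest in si-hnRNPK and lowest in the si-lncRNA-LBCS-labelled library. The ratios to control were 1.09 (1.03 to 1.14), 0.895 (0.848 to 0.945) and 0.830 (0.788 to 0.874) in si-hnRNPK, si-PTBP1 and the si-lncRNA-LBCS-labelled library. All intervals leave out 1, and the differences of 0.12, -0.16 and -0.26 are far short of the threshold.

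MYC, the transcription factor gene, was at 210.3 CPM in control, 225.1 CPM in si-hnRNPK, 165.9 CPM in si-PTBP1 and 140.8 CPM in the si-lncRNA-LBCS-labelled library. The order of the libraries was the same as for PVT1, which is a description over 4 libraries and carries no test. GSDMC, the nearest coding gene on the other side at 1646943 bases, stayed below 0.1 CPM. Of the small RNA entries inside PVT1, RNU4-25P, whose exon overlaps PVT1 exons by 63 bases, was at 0.838 to 1.56 CPM, and MIR1205 and MIR1207 were below 1 CPM.

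DANCR, a host of the small nucleolar RNA SNORA26, varied little between the libraries. The gene (ENSG00000226950) lies at chr4:52712404-52720351, plus strand. It was at 70.5 CPM (4325 reads) in control, 66.5 CPM (3613 reads) in si-hnRNPK, 58.9 CPM (3300 reads) in si-PTBP1 and 75.3 CPM (5289 reads) in the si-lncRNA-LBCS-labelled library. The si-PTBP1 library was lowest, with 0.835 times the control level (0.798 to 0.874). The ratios in si-hnRNPK (0.944) and in the si-lncRNA-LBCS-labelled library (1.07) lay nearer to 1, and the difference of -0.08 in si-hnRNPK turns to 0.03 with median-of-ratios scaling. SNORA26 was at 0.864, 1.31, 1.12 and 1.38 CPM in control, si-hnRNPK, si-PTBP1 and the si-lncRNA-LBCS-labelled library. The coding neighbours were USP46, a deubiquitinase gene 53069 bases away at 19.4 to 28.4 CPM, and ERVMER34-1, a retroviral envelope gene 2267 bases away that stayed below 0.2 CPM.

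UCA1 takes its name from urothelial cancer, in which it was described as associated with the tumour, and was close to the floor of detection in these bladder cancer cells. The gene (ENSG00000214049) lies at chr19:15828206-15836326, plus strand. It had 6 reads in control, 1 read in si-hnRNPK, 5 reads in si-PTBP1 and 0 reads in the si-lncRNA-LBCS-labelled library, which are 0.0978, 0.0184, 0.0892 and 0 CPM. The count of 0 allows a level of up to 0.0427 CPM at the floor of 3 reads, and its exact two-sided 95% interval, drawn in the plot of levels, reaches 0.0525 CPM. The ratio of si-hnRNPK to control was 0.188 with an interval of 0.0041 to 1.55, and that of si-PTBP1 to control was 0.912 with an interval of 0.220 to 3.59, so neither difference was detectable at this depth. The interval of the si-lncRNA-LBCS-labelled library against control, 0 to 0.742, leaves out 1, as does that against si-PTBP1, on 0 reads against 6 and 5. Its neighbour CYP4F2, a fatty acid hydroxylase gene, had at most 1 read in a library, and OR10H1, an olfactory receptor gene, was not listed.

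Motifs known for the targeted proteins were counted in the longest transcript of each lncRNA on the sense strand, with CCUCCC for hnRNPK and UUCUCU for PTBP1; these motifs do not overlap. CCUCCC was found 4 times in OIP5-AS1 (8829 bases), 4 times in H19 (2348 bases), 2 times each in PVT1 and TUG1, 1 time in DANCR and 0 times in UCA1. At least 1 CCUCCC was present in 50.2% of the 5057 lncRNA transcripts, and 20.7% of them held it as densely as H19 or more so. UUCUCU was found 8 times in OIP5-AS1, 2 times in TUG1 and 0 times in H19, PVT1, DANCR and UCA1, while 42.4% of lncRNA transcripts held at least 1. In matches per length, 23.4% of all lncRNA transcripts equalled or exceeded OIP5-AS1, and 41.5% equalled or exceeded TUG1. H19 and TUG1, which were at least 1.5-fold higher in si-PTBP1, held 0 and 2 of the PTBP1 motif, OIP5-AS1 with 8 was 1.16 times control there, and these counts say nothing of binding.

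The genes whose 3 differences from control lay nearest to those of a lncRNA were searched among 9463 genes that reached 10 CPM in any library, by the largest of the 3 gaps in log2(CPM + 1). FLRT3, a cell adhesion gene, came nearest to H19 with a gap of 0.29. It was at 1.99 CPM in control, 3.35 CPM in si-hnRNPK, 10.6 CPM in si-PTBP1 and 4.29 CPM in the si-lncRNA-LBCS-labelled library. ADGRB3, an adhesion receptor gene, followed with a gap of 0.38 (4.02, 6.83, 22.8 and 8.51 CPM in the same order). The gaps of H19 were wider than those of the other four lncRNAs tested, which lay between 0.02 and 0.07. OIP5-AS1 was nearest to the centrosome gene NEDD1 (68.1, 34.9, 75.8 and 78.5 CPM) and the kinase gene CAMKK1, TUG1 to the zinc finger gene ZNF580 (6.13, 5.93, 10.2 and 3.96 CPM) and TP53I11, PVT1 to ZSCAN21 and the fucosyltransferase gene FUT8, and DANCR to the DNA damage binding gene DDB1 and the nucleotide synthesis gene PRPS2. With 3 differences per gene such a likeness is a description only.

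Other genes known as partners or targets of the 6 lncRNAs were described as a list of 22, of which 20 could be tested. In si-hnRNPK 0 rose and 2 fell, EZH2 and DICER1, where 3.55% of all genes tested were higher and 3.93% were lower, with a list median of -0.37 against -0.11 for all genes tested. In si-PTBP1 0 were called in either direction, where 2.92% of all genes tested were higher and 0.613% were lower. In the si-lncRNA-LBCS-labelled library 1 fell, IGF2, where 0.378% of all genes tested were higher and 1.01% were lower. CDKN1B, the cell cycle inhibitor p27 that UCA1 is known to affect, was at 99.4 CPM in control, 95.9 CPM in si-hnRNPK, 163.4 CPM in si-PTBP1 and 125.2 CPM in the si-lncRNA-LBCS-labelled library. IGF1R, the receptor that miR-675 is known to target, was at 19.4, 15.4, 33.5 and 18.2 CPM in that order, and the glycolytic enzyme gene HK2 at 116.0, 99.1, 71.8 and 78.8 CPM. The IGF2-binding proteins IGF2BP2 (66.3 to 114.2 CPM) and IGF2BP3 (55.8 to 69.3 CPM), the chromatin factor HMGA2 (52.8 to 77.7 CPM) and the transcription factor CREB1 (36.4 to 39.7 CPM) did not pass the threshold in any library.

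Among 103 other lncRNAs known from cancer, 70 were listed and 58 could be tested in each comparison. In si-hnRNPK 1 rose and 1 fell, where 4.39% of the lncRNA genes tested were higher and 2.30% were lower. In si-PTBP1 3 rose and 0 fell (all lncRNA genes: 3.04% and 0.276%), and in the si-lncRNA-LBCS-labelled library 0 were called (0.511% and 0.613%). With a pseudocount of 0.1 in place of 1 these became 3 and 4 in si-hnRNPK and 6 and 0 in si-PTBP1, and stayed at 0 in the si-lncRNA-LBCS-labelled library. The share of all lncRNA genes called at that pseudocount was not computed, so these counts stand without a background. NEAT1, the scaffold RNA of paraspeckles, was at 193.9 CPM in control, 401.9 CPM in si-hnRNPK, 621.5 CPM in si-PTBP1 and 168.1 CPM in the si-lncRNA-LBCS-labelled library, and rose in si-hnRNPK and in si-PTBP1. MALAT1, an RNA of nuclear speckles and the most abundant of the list, was at 2213, 3098, 4714 and 1338 CPM in the same order and rose in si-PTBP1 by 1.09, or by 0.96 and short of the threshold after median-of-ratios scaling. Both nuclear RNAs were highest in si-PTBP1 and lowest in the si-lncRNA-LBCS-labelled library, as TUG1 was. MIR99AHG, a microRNA host, rose from 0.896 to 3.35 CPM in si-PTBP1, though not past the threshold against the geometric mean of the other libraries, and FOXD2-AS1 fell from 1.86 to 0.424 CPM in si-hnRNPK, a difference of -1.01 that became -0.97 with that scaling. Against the geometric mean of the other libraries, 1 gene of the list passed in si-hnRNPK, LINC00958, and NEAT1 did not. LINC00958 was named after its values were seen. The share of all lncRNA genes passing against that reference was not computed. The small nucleolar RNA hosts SNHG6 and SNHG16, the next most abundant in control, were at 237 to 289 CPM and 160.6 to 256.6 CPM. The list medians were 0.14, 0.08 and 0.08 in si-hnRNPK, si-PTBP1 and the si-lncRNA-LBCS-labelled library, beside -0.01, 0.20 and 0.05 for all lncRNA genes tested. In si-PTBP1 the rise of H19 by 2.18 was larger than that of NEAT1, 1.68, the largest on the list. The comparisons share the control library, so these values are not independent of one another.

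**Figure D5:**
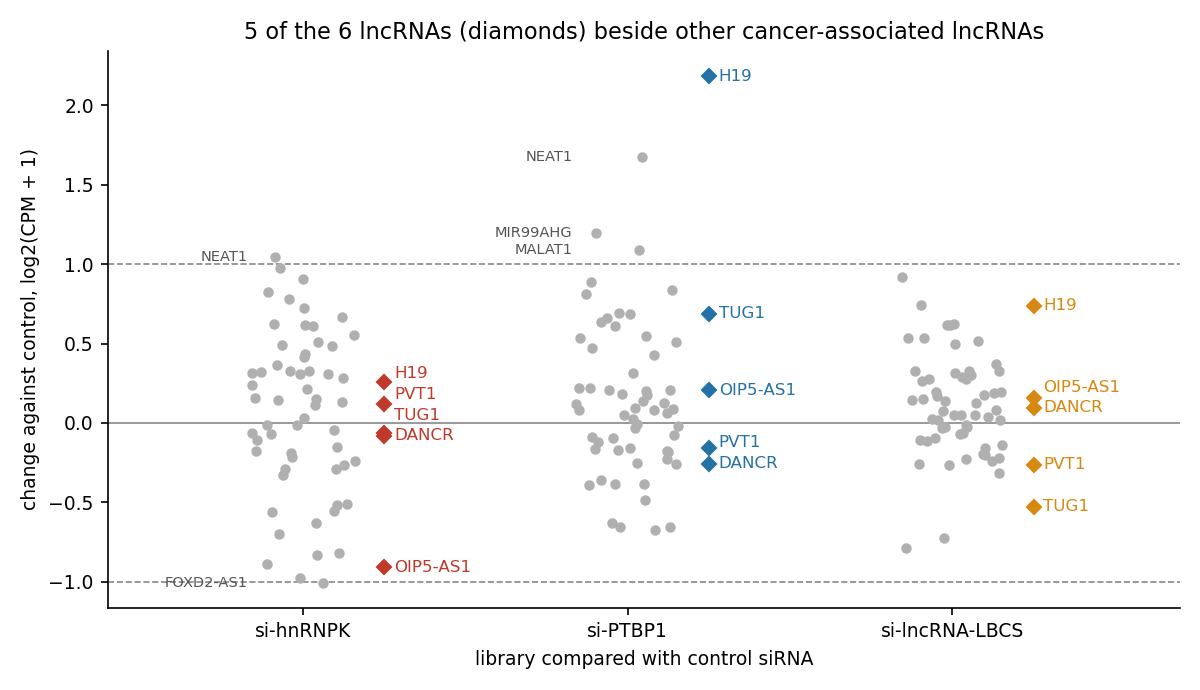
Difference in log2(CPM + 1) against control of 58 other cancer-associated lncRNAs (grey, spread sideways for display) and of the 5 tested lncRNAs of the 6 described here (diamonds), in the 3 libraries other than control; the dashed lines are the threshold of 1. H19 in si-PTBP1 (2.18) lies above every grey point, and OIP5-AS1 in si-hnRNPK (-0.91) lies near the lower end.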

How the data were processed

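RNA-seq was analysed in 4 libraries of UM-UC-3 cells, 1 per condition, grouped by their labels. For each library the authors deposited a table of CPM by Ensembl identifier; the submitters' processing notes name the build hg19, while the aligner, the counter, the annotation, the use of strand and any filter are not given in the sources used here. Genes without reads carry a placeholder. Of the other values 100% came out as whole reads when divided by the CPM of 1 read (relative tolerance 1e-06). Symbols, lncRNA types, exons and transcripts come from GENCODE release 29 on GRCh38 and were matched by identifier (25756 of 27629); no coordinates of the authors were used. Promoters and microRNAs are RefSeq entries on GRCh38.p14; a promoter entry was used for 4 of the 6 lncRNAs.

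Changes are differences in log2(CPM + 1), called at 1 or more for genes at 1 CPM or more in 1 of the 2 libraries. Without replicates no test of the conditions was run. Ratios carry 95% exact Clopper-Pearson intervals (counting error only; reads of PCR-amplified libraries are not independent molecules). The 6 lncRNAs and all gene lists were chosen with earlier results of these data known. Named were the 6 lncRNAs, the siRNA targets, the nearest coding genes and exon overlaps, list genes past the threshold with the 3 most abundant other lncRNAs, partner and imprinted genes at 1 CPM or more, and the 2 genes of nearest pattern, of which those of UCA1 are left out because it was under 1 CPM. Alternatives were a filter of 5 CPM or none, a pseudocount of 0.1, 1.5-fold, median-of-ratios scaling over 12362 genes, the geometric mean of the other libraries as reference, an exact binomial test of the reads (Benjamini-Hochberg q of at most 0.05) and another gene length. The rule for calling a change and the interval were tested on simulated reads. These held changes above the threshold in genes of higher expression only. The versions used were matplotlib 3.10.9, statsmodels 0.14.6, scipy 1.17.1, pandas 2.3.3, numpy 2.4.6 and Python 3.11.15.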

Additional observations from a re-analysis of the deposited data

How the results depend on the processing

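No paired analysis was possible because each condition is 1 library and the labels give no replicate numbers; for the same reason no library could be left out within a condition. The number of the 6 lncRNAs called was 0 in si-hnRNPK, 1 in si-PTBP1 and 0 in the si-lncRNA-LBCS-labelled library, and moved to 1, 2 and 1 at 1.5-fold and, in si-hnRNPK, to 1 against the geometric mean of the other libraries (OIP5-AS1). Of the other cancer-associated lncRNAs, 2, 3 and 0 were called in those libraries. A pseudocount of 0.1 gave 7 in si-hnRNPK and 6 in si-PTBP1, and a filter of 5 CPM gave 1 in si-hnRNPK and 2 in si-PTBP1, without MIR99AHG. Median-of-ratios scaling gave 2 in si-hnRNPK (NEAT1 and LINC00958) and 2 in si-PTBP1, without MALAT1. At 1.5-fold the counts were 17, 15 and 7 of the 58 tested. In si-hnRNPK 17.24% of these were higher and 12.07% lower, beside 14.97% and 14.37% of all lncRNA genes tested. In si-PTBP1 the shares were 18.97% and 6.897%, beside 15.21% and 3.23%. In the si-lncRNA-LBCS-labelled library they were 8.62% and 3.45%, beside 6.13% and 5.32%. Against the geometric mean the counts were 1 in si-hnRNPK, 2 in si-PTBP1 (without MIR99AHG) and 2 in the si-lncRNA-LBCS-labelled library. Apart from 1.5-fold, the share of all lncRNA genes called under these alternatives was not computed, so those counts stand without a background. H19 in si-PTBP1 passed 2-fold under every alternative listed. Of these alternatives, a filter leaves a difference as it is and another pseudocount cannot turn its sign. Only median-of-ratios scaling and the geometric mean as reference could do so. Of 73 recomputed differences of the lncRNAs above 1 CPM, 69 kept their sign. The exceptions were TUG1 (0.05) and DANCR (0.03) in si-hnRNPK with median-of-ratios scaling, and H19 against the geometric mean, which includes its high si-PTBP1 value, in si-hnRNPK (-0.72) and in the si-lncRNA-LBCS-labelled library (-0.07). The exact binomial test compares 2 libraries and not the conditions; at this depth its q was at most 0.05 for 9478 to 10870 of the genes tested and for 3, 5 and 5 of the 5 lncRNAs. Depth limits UCA1, with at most 6 reads in a library, and H19 in si-hnRNPK, whose 132 and 150 reads gave an interval of 1.01 to 1.64 and a q of 0.0518.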
